A study of Mus musculus with 8 samples.

Results

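Resident fibroblasts of skeletal muscle and their progenitors express a common set of surface and matrix genes. The 10 described here, taken without the collagens, are Pdgfra, Cd248, Pi16, Dcn, Lum, Fbn1, Mfap5, Fn1, Sparc and Gsn. They were found as the non-control probes whose accession maps to 1 of these symbols, which gave 11 probes (2 for Sparc, 1 for each of the other 9 genes) of 55681 non-control probes on the array. All 11 probes passed the filter for testing, among 24867 probes tested, and 10 of them were well above background on all 8 arrays. The dimmer Sparc probe was so on 7 arrays, all but that of PCKO mouse 2.

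RNA came from a fast muscle of the lower hindlimb, the extensor digitorum longus (EDL), in C57BL/6 males. In 4 mice, called PCKO, an inducible, skeletal muscle-specific system deleted the genes of p300 (Ep300) and CBP (Crebbp), paired acetyltransferases that act as transcriptional coactivators. Only CBP is named in the genotype label, both genes in the protocol. The other 4 mice were wild type (WT). Tamoxifen was given by gavage for 5 days from 13 to 15 weeks of age, and mice were killed 1 day after dosing ended, having been fasted for 4 h. The same treatment text stands on the labels of both groups but names only PCKO mice, and the sources used here do not name the promoter that drives the recombinase. The deletion was aimed at skeletal muscle, whereas the genes described here are expressed chiefly by other cells of the tissue.

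In muscle, cells with PDGF receptor alpha on their surface, the fibro-adipogenic progenitors, lie between the fibres and make much of the extracellular matrix. They support satellite cells during repair and can become fibroblasts, myofibroblasts or fat cells. Decorin and lumican are small leucine-rich proteoglycans that bind collagen fibrils, fibrillin-1 builds the microfibrils of elastic tissue, fibronectin links the matrix to integrins, and SPARC binds collagen and affects how fibrils assemble. Some of these genes are not confined to fibroblasts: Sparc and Fn1 are also made by vessel cells, and Gsn, an actin-severing protein, by many cell types.

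All 8 arrays were on 1 slide, with 2 PCKO and 2 WT arrays in each of its 2 rows. Both left columns held PCKO arrays and both right columns WT arrays, so the column and the group cannot be told apart. No spot was saturated, and 43.4% to 46.1% of probes exceeded background clearly on each array. Levels are log2 intensities relative to the 75th percentile of the same array, so a level of 0 lies at that percentile. Each difference is that of PCKO from WT, given as PCKO minus WT and with its standard error in a limma fit to all 24867 probes, and adjusted p-values are Benjamini-Hochberg values over those probes. Ep300 fell by 1.44 ± 0.11 (limma adjusted p = 9.6e-06) and Crebbp by 0.70 ± 0.11 (limma adjusted p = 6.0e-04, though Crebbp differed by -0.02 with the spike-in scaling described later), but where their probes lie relative to the deleted parts is not known here. As a description across tested probes, Pearson r was 0.988 to 0.991 within a group and 0.916 to 0.93 between a PCKO and a WT array.

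Promoter sequences were available for 5 of the 10 genes (Pdgfra, Pi16, Fbn1, Sparc and Gsn). The 250 bases before the start are shown for the 4 that have 1 annotated start in the table, all called lower in PCKO, because CBP is named for binding CREB, a factor of cAMP response elements. Sequences are from RefSeq on GRCm38.p6, 5′ to 3′ on the gene's strand. Capitals mark every match, on either strand, to 5 short motifs. These were TGACG, the half-site of a cAMP response element, CAGAC, the SMAD-binding element, GGGCGG, known as the GC box, CCAAT, bound by the factor NF-Y, and TATAAA, the core promoter element of that name.
Pdgfra, chr5:75152001-75152250, plus strand: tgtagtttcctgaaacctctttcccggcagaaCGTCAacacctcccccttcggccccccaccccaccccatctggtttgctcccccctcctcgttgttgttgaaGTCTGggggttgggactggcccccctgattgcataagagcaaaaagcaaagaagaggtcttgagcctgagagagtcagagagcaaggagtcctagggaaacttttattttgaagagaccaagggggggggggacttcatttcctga
Pi16, chr17:29318632-29318881, plus strand: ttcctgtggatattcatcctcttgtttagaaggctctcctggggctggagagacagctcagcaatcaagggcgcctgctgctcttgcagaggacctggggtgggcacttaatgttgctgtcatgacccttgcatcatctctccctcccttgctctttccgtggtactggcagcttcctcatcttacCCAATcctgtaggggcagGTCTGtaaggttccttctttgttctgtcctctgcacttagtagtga
Fbn1, chr2:125506439-125506688, minus strand: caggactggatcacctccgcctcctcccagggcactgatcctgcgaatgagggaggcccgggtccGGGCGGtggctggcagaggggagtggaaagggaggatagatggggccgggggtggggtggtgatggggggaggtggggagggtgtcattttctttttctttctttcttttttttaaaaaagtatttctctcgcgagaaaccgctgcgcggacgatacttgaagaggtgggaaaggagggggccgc
Sparc, chr11:55420081-55420330, minus strand: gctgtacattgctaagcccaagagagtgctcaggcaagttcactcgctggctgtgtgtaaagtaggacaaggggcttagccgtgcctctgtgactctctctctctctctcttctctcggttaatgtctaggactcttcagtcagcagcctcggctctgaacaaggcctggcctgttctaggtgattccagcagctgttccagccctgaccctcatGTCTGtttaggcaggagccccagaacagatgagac
The Pdgfra window held TGACG on the opposite strand, 218 to 214 bases before the start, and CAGAC on the opposite strand at 146 to 142. That of Pi16 held CCAAT at 64 to 60 and CAGAC on the opposite strand at 46 to 42. In Sparc the single match was CAGAC on the opposite strand at 35 to 31, and in Fbn1 it was GGGCGG at 185 to 180. Over 32851 mouse promoter windows of the same length, 17.8% held TGACG, 42.2% CAGAC, 32.7% GGGCGG, 33.8% CCAAT and 12.4% TATAAA. Gsn, also called lower, has 3 annotated starts, and which of them its probe reads is not known here, so its windows are not printed. They held 2, 3 and 5 matches, with GGGCGG in all 3 windows. None of these motifs is rare, and a match is a description of letters, not of binding.

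Of the 11 probes, 10 were lower in PCKO muscle at an adjusted p under 0.05 and 0 were higher, covering 9 of the 10 genes. Mfap5 was the gene that did not pass. Over all tested probes 31.3% were called lower and 33.8% higher. The groups did not overlap, with PCKO below WT, for 10 of the 11 probes, against 28.7% of all tested probes. The median difference was -1.61 over the 11 probes and 0.02 over all tested probes. Differences ranged from -2.74 for the dimmer Sparc probe to -0.38 for Gsn. In whole muscle, fewer cells of a type and less RNA per cell cannot be told apart.

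**Figure D1:**
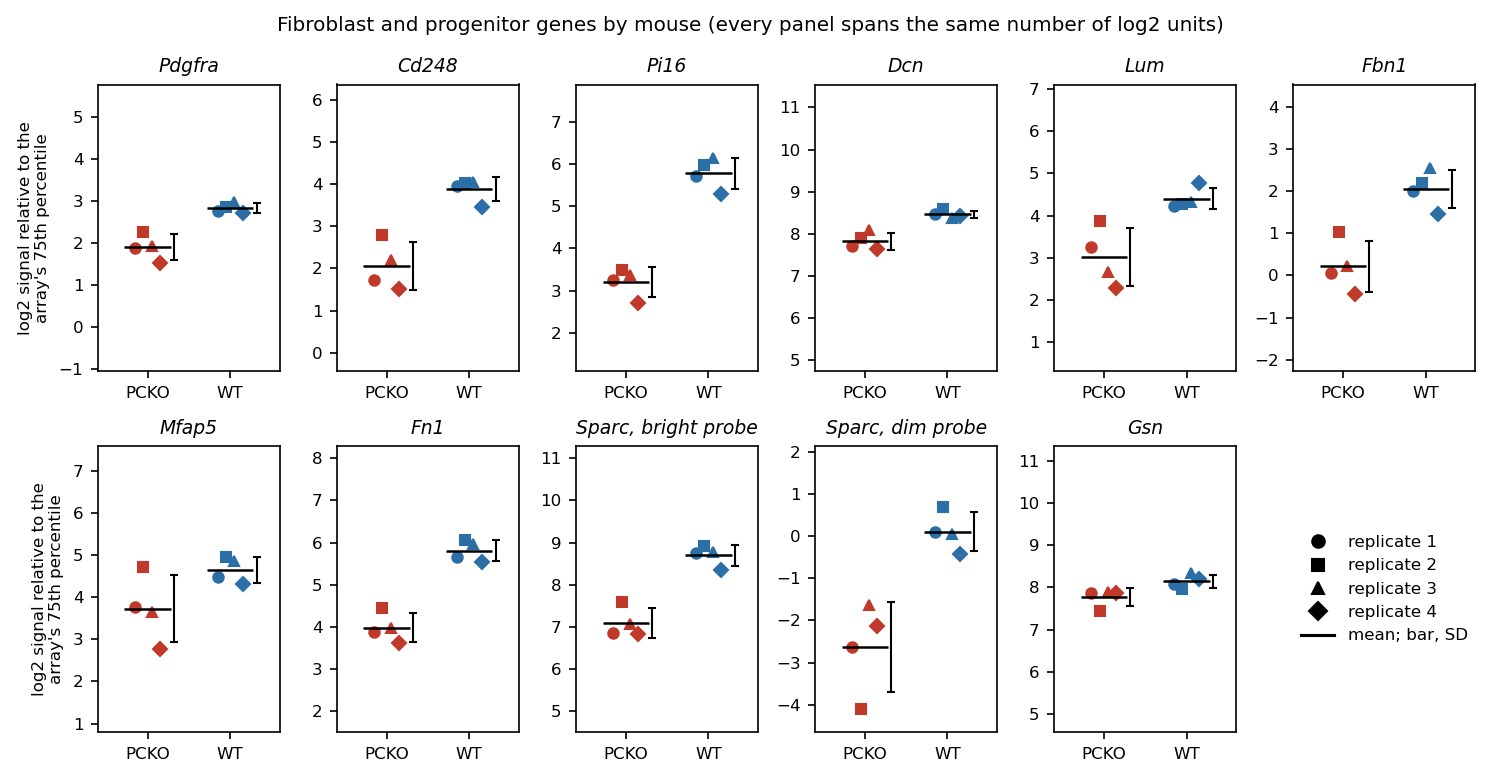
Level of each member probe in each mouse (log2 intensity relative to the array's 75th percentile; PCKO red, WT blue; symbols give the replicate number, lines the mean, bars the SD). All 4 PCKO mice lie below all 4 WT mice for every probe except Mfap5, where PCKO mouse 2 lies among the WT mice; with spike-in scaling 5 of the 11 probes stayed apart, and Dcn and Gsn overlapped with quantile normalization too.

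Among the surface proteins, Pi16, a peptidase inhibitor domain protein of the CAP family that marks a progenitor-like fibroblast of adventitia, differed most. Its level was 3.26, 3.49, 3.36 and 2.70 in PCKO mice 1 to 4, against 5.72, 5.98, 6.14 and 5.29 in WT mice 1 to 4. The lowest WT mouse stood well above the highest PCKO mouse, and the spread within either group was small beside the gap. The difference was -2.58 ± 0.22 (limma adjusted p = 1.9e-05), or 5.97-fold lower in PCKO, and 3.5% of all tested probes had a more negative one.

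Cd248 encodes endosialin, a surface glycoprotein of fibroblasts and pericytes. Its level was 1.73, 2.79, 2.20 and 1.50 in PCKO mice, against 3.96, 4.03, 4.06 and 3.46 in WT mice. The groups were apart, although PCKO mouse 2 and WT mouse 4 came closer to each other than the rest. Cd248 was 3.54-fold lower in PCKO (-1.82 ± 0.28, limma adjusted p = 4.8e-04).

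Pdgfra, the receptor by which fibro-adipogenic progenitors are usually recognised, had 10 spots of its probe on every array. Levels were 1.89, 2.27, 1.92 and 1.53 in PCKO mice, against 2.75, 2.86, 2.97 and 2.72 in WT mice. All PCKO values lay below all WT values, and the WT mice were nearly alike (SD 0.11, against 0.30 among PCKO mice, n = 4 each). Pdgfra was 1.9-fold lower in PCKO (-0.93 ± 0.15, limma adjusted p = 7.4e-04). The 10 spots on 1 array varied by a coefficient of variation of 3.23% to 8.68% (SD of at most 0.13 on the log2 scale), which is the technical spread within an array.

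The proteoglycans Dcn and Lum were both called lower with the percentile scaling. Dcn (decorin) had levels of 7.70, 7.89, 8.08 and 7.63 in PCKO mice, against 8.48, 8.58, 8.38 and 8.41 in WT mice. The groups were apart by a narrow margin, with PCKO mouse 3 closest to the WT range. Dcn was 1.56-fold lower in PCKO with this scaling (-0.64 ± 0.11, limma adjusted p = 0.0012), while it differed by -0.15 with quantile normalization (limma adjusted p = 0.3) and by 0.04 with spike-in scaling (limma adjusted p = 0.92).

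Lum (lumican) stood at 3.26, 3.87, 2.66 and 2.29 in PCKO mice, against 4.23, 4.27, 4.33 and 4.78 in WT mice. WT mice 1 to 3 were nearly alike, whereas PCKO mice spread over more than 1 log2 unit, and PCKO mouse 2 was nearest to WT. The difference was -1.38 ± 0.32 (limma adjusted p = 0.005), or 2.6-fold lower in PCKO. Within slide row 1 it was -0.68 and within row 2 it was -2.08, the widest relative gap between rows among the genes called, and the row 1 value alone did not pass (limma adjusted p = 0.077).

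Fbn1 (fibrillin-1) and Mfap5, a small glycoprotein that binds fibrillin, belong to the microfibril. Fbn1 had levels of 0.07, 1.02, 0.23 and -0.45 in PCKO mice, against 2.01, 2.19, 2.54 and 1.46 in WT mice. No PCKO mouse reached the WT range. Fbn1 was 3.56-fold lower in PCKO (-1.83 ± 0.33, limma adjusted p = 0.0012).

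Mfap5, in contrast, gave overlapping groups. Its level was 3.76, 4.72, 3.66 and 2.78 in PCKO mice, against 4.48, 4.95, 4.86 and 4.31 in WT mice. PCKO mouse 2 was above 2 of the WT mice, and the other PCKO mice were below all of them. The difference of -0.92 ± 0.36 missed the threshold (limma adjusted p = 0.052), with a 95% confidence interval of -1.75 to -0.09. It was -0.60 without PCKO mouse 4 (limma adjusted p = 0.1) and -1.25 without PCKO mouse 2 (limma adjusted p = 0.0052). It also passed with the replicate number as a block (limma adjusted p = 0.016) and with the slide row as a block (limma adjusted p = 0.039).

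Of the matrix glycoproteins, Fn1 (fibronectin) had levels of 3.87, 4.45, 3.97 and 3.62 in PCKO mice, against 5.66, 6.06, 5.96 and 5.54 in WT mice. The groups were more than 1 log2 unit apart at their nearest values. Fn1 was 3.55-fold lower in PCKO (-1.83 ± 0.19, limma adjusted p = 5.5e-05).

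Sparc was measured by 2 probes. The brighter gave 6.86, 7.59, 7.07 and 6.83 in PCKO mice, against 8.76, 8.91, 8.77 and 8.34 in WT mice. PCKO mouse 2 was again the PCKO mouse nearest to WT, without reaching it. By this probe Sparc was 3.05-fold lower in PCKO (-1.61 ± 0.19, limma adjusted p = 1.2e-04), and the difference was -1.61 within each slide row. The dimmer probe gave -2.64, -4.11, -1.63 and -2.12 in PCKO mice, against 0.10, 0.70, 0.05 and -0.41 in WT mice. Here PCKO mouse 2 was the lowest rather than the highest of its group, and its value is the one not well above background. The dimmer probe differed by -2.74 ± 0.50 (limma adjusted p = 0.0013), and by -2.24 without PCKO mouse 2. The log2 ratio of the dimmer to the brighter probe was 1.13 lower in PCKO, which did not pass an exact permutation test (two-sided, p = 0.086, 4 against 4 mice), so unequal change of the probes was not shown.

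Gsn (gelsolin) had the smallest difference of the members. Levels were 7.87, 7.45, 7.90 and 7.86 in PCKO mice, against 8.08, 7.97, 8.34 and 8.20 in WT mice. The groups were apart by the narrowest margin of the 10 probes whose groups did not overlap, and PCKO mouse 2, the lowest, stood off from the other 3 PCKO mice. Gsn differed by -0.38 ± 0.13 (limma adjusted p = 0.03), or 1.3-fold lower in PCKO with this scaling, while it was 0.09 higher with quantile normalization (limma adjusted p = 0.54) and 0.30 higher with spike-in scaling (limma adjusted p = 0.39). Its call was also lost without PCKO mouse 2 (limma adjusted p = 0.057), without WT mouse 3 (limma adjusted p = 0.077) and without WT mouse 4 (limma adjusted p = 0.063).

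Some mice were low or high for most of the genes, but which mice depended on the scaling. With percentile scaling PCKO mouse 4 had the lowest level of its group for 9 of the 10 genes, Gsn being the exception, and PCKO mouse 2 had the highest for 8 of them (the brighter Sparc probe stands for Sparc). Relative to the WT mean, the mean over the 10 genes was -1.44, -0.92, -1.36 and -1.84 in PCKO mice 1 to 4, against -0.06, 0.11, 0.16 and -0.22 in WT mice 1 to 4. Every PCKO mouse lay below every WT mouse on this mean with percentile scaling, and among WT mice, mouse 4 had the lowest level for 7 genes. With spike-in scaling, PCKO mouse 1 was the lowest of its group for 7 genes and PCKO mouse 4 for 2, while PCKO mouse 2 was the highest for 7, and WT mouse 1 was the lowest WT mouse for all 10 genes. The mean over the 10 genes was then -1.16, -0.34, -0.59 and -0.77 in PCKO mice 1 to 4, against -0.47, 0.30, 0.13 and 0.04 in WT mice 1 to 4. On that scale the groups overlapped, since PCKO mouse 2 lay above WT mouse 1. These values describe the mice of each group and carry no test.

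**Figure D2:**
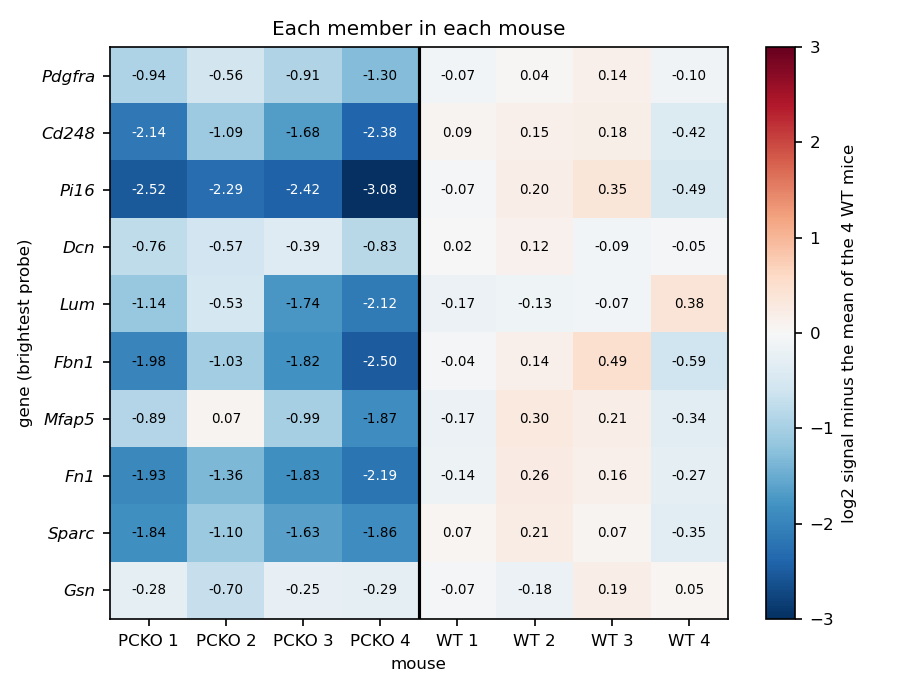
Level of each gene in each mouse minus the mean of the 4 WT mice (log2 units; rows, genes by brightest probe; columns, mice; blue below and red above the WT mean; arrays scaled on the 75th percentile). PCKO mouse 4 is lowest of its group for 9 of 10 genes and PCKO mouse 2 highest for 8, including a Mfap5 value of 0.07 above the WT mean; with spike-in scaling PCKO mouse 4 was lowest for 2 genes and PCKO mouse 1 for 7.

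How far the genes fell depended on the scaling of the arrays. Relative to 7 control transcripts spiked into each sample, the 75th percentile of an array was -2.80 ± 0.34 in PCKO and -3.48 ± 0.30 in WT (SD, n = 4 each). That is a difference of 0.68 (two-sided exact permutation p = 0.029, the lowest that 4 against 4 mice can give). The sources used here do not say how much of the control mix each sample received. With spike-in scaling the median of all tested probes was 0.70 higher in PCKO, and the median of the 11 member probes was -0.93. Of the 11, 7 were called lower and 0 higher, where 9.62% of all tested probes were called lower and 52.1% higher. Error shared by all probes of an array makes those p-values too small. With the variance of each probe alone, 6 of the 11 were called lower, against 7.87% of all tested probes, and the groups did not overlap for 5 of the 11, against 7.63%. Quantile normalization, which gives all arrays 1 distribution, left 8 of the 11 called lower and 0 higher, against 28% and 38.1% of all tested probes.

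Pi16 remained the gene with the largest fall among those with 1 probe. With spike-in scaling it was -1.90 (adjusted p = 0.0031 in a limma fit with its own variance), Fn1 -1.15 (adjusted p = 0.017 in that fit), Fbn1 -1.15 (0.036), Cd248 -1.14 (0.029) and the brighter Sparc probe -0.93 (0.031). The dimmer Sparc probe differed by -2.06 (0.045). Lum, at -0.70, passed with pooled variance (limma adjusted p = 0.039) but not with its own (limma adjusted p = 0.14). Pdgfra was -0.25 with an interval of -0.78 to 0.29 and Mfap5 -0.24 with an interval of -1.20 to 0.72, both 95% and from the own-variance fit. Those of Dcn, -0.57 to 0.65, and Gsn, -0.38 to 0.97, also held 0. Pi16, Cd248, Fn1, Fbn1 and Sparc were thus called lower under percentile, quantile and spike-in scaling alike, Pdgfra under percentile and quantile scaling, and Lum under these and, with pooled variance, under spike-in scaling.

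**Figure D3:**
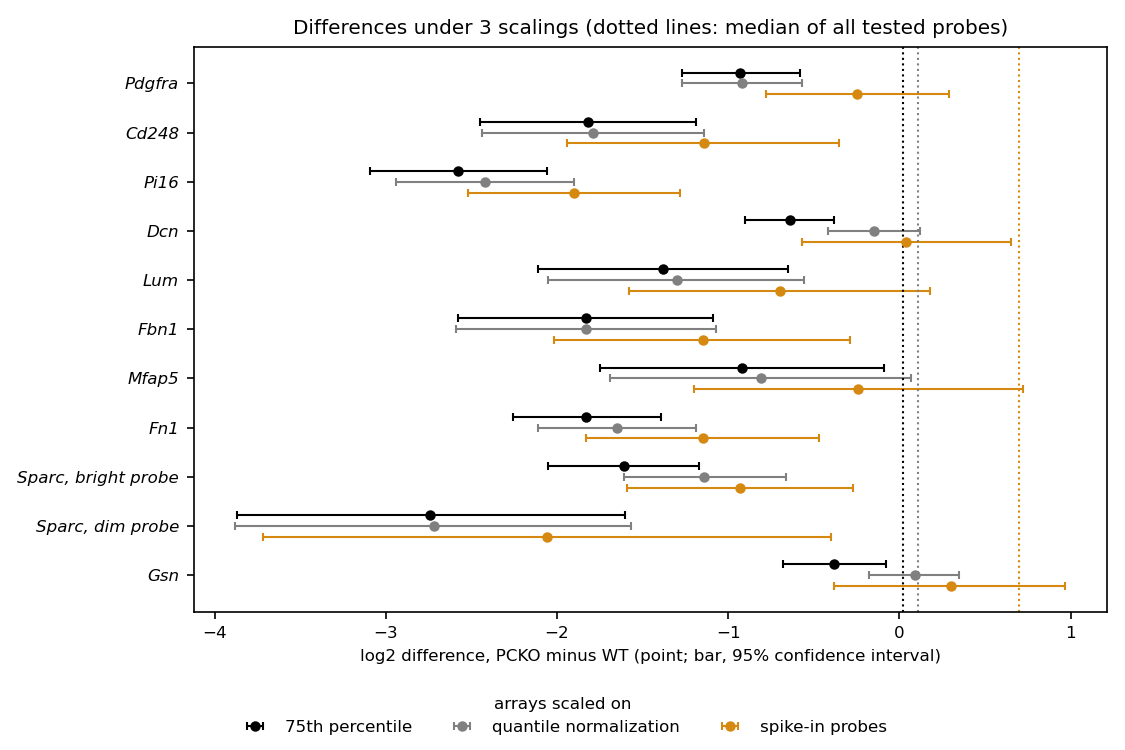
Log2 difference of each member probe, PCKO minus WT, with arrays scaled on the 75th percentile (black), by quantile normalization (grey) or on spike-in probes (orange); bars are 95% confidence intervals of the limma fit, with each probe's own variance for the spike-in scaling, and dotted lines mark the median of all tested probes. Every point lies left of the median line of its own scaling, and for Dcn and Gsn the sign changes with the scaling.

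Because centring an array moves all its probes alike, the ratio of 2 probes on the same array does not depend on it. Dcn was used as the denominator for the other 10 member probes, a choice made after seeing the data, and each ratio was compared by an exact permutation test (two-sided, 4 against 4 mice, smallest possible p = 0.029). With percentile scaling only Gsn had a smaller fall (-0.38) than Dcn (-0.64). Lower ratios therefore follow in part from that choice, and the p-values are not independent support. Relative to Dcn, 5 of the 10 ratios were lower in all PCKO than in all WT mice at that smallest p, and 0 were higher. They were those of Pi16 (-1.94, 3.83-fold lower in PCKO), Fn1 (-1.19), Cd248 (-1.18) and both Sparc probes (-0.97 and -2.10). Fbn1 had a difference of -1.19 but its groups overlapped (exact permutation p = 0.057). Lum (-0.74, exact permutation p = 0.14), Pdgfra (-0.29, exact permutation p = 0.14), Mfap5 (-0.28, exact permutation p = 0.57) and Gsn (0.26, exact permutation p = 0.23) did not pass. Within an array, then, Pi16, Cd248, Fn1 and Sparc were lower in PCKO relative to Dcn, which does not say whether Dcn itself changed.

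**Figure D4:**
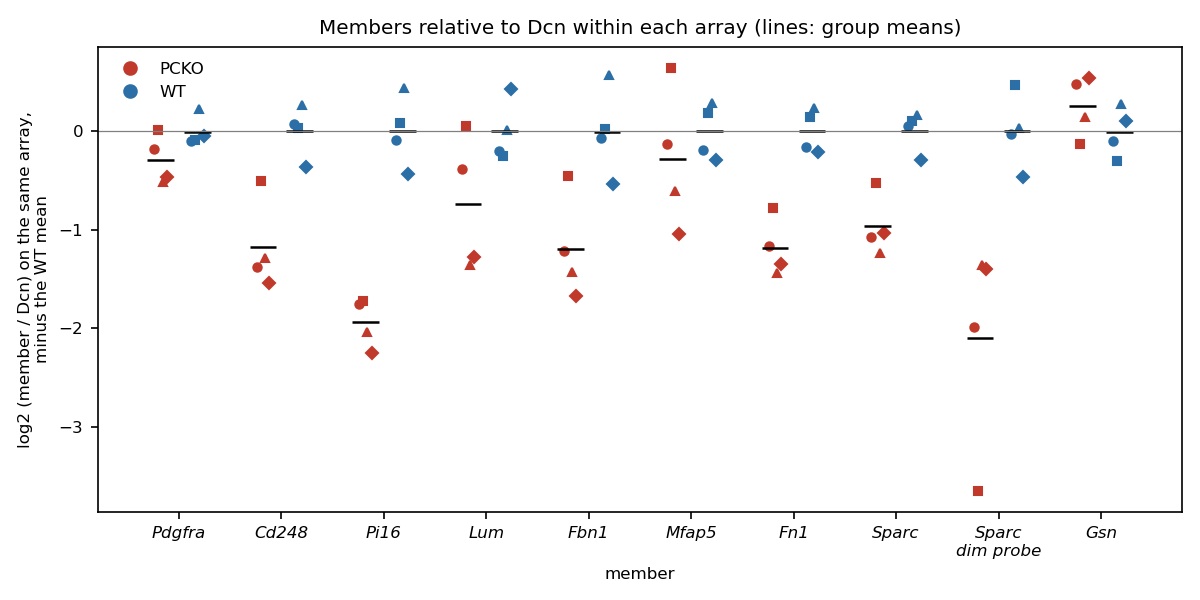
Log2 ratio of each member probe to Dcn on the same array, minus the WT mean of that ratio (PCKO red and left, WT blue and right; points are mice, lines group means). Pi16, Cd248, Fn1 and both Sparc probes lie lower in every PCKO mouse than in every WT mouse, and the other members overlap.

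Other genes of fibroblasts and of the same families were described by the brightest probe of each gene in 22 lists. Over 12738 named genes tested in this way, 31.9% were called lower and 37.5% higher, with a median difference of 0.06. With spike-in scaling 9.4% of these genes were lower and 53.5% higher, with a median of 0.73. Of 38 other fibroblast and progenitor genes tested, 30 fell, 0 rose and 8 did not pass (median -1.13, and 16 lower and 1 higher with spike-in scaling). Igfbp5, which encodes a secreted binding protein of insulin-like growth factors, fell by 3.92 ± 0.17 (limma adjusted p = 3.6e-07). Gpx3, a secreted glutathione peroxidase, fell by 2.70 ± 0.14 and Lsp1, an actin-binding protein also found in leukocytes, by 2.45 ± 0.12. Further genes of the list called lower were Thy1 (-2.29), a surface glycoprotein used to sort fibroblasts, Dpp4 (-1.70), a surface peptidase of the progenitor-like state that Pi16 also marks, and Ly6a (-1.08), the Sca-1 antigen, whose call was lost with spike-in scaling (-0.41, limma adjusted p = 0.23). Thy1, Dpp4 and Ly6a were picked after their values were seen. The 8 that did not pass were Tcf7l2, S100a4, Apod, Ugdh, Htra3, Prg4, Ccn5 and Twist2. Ugdh was the 1 called higher with spike-in scaling (0.68).

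The other small leucine-rich proteoglycans were all lower: 9 of 9 tested fell (median -1.23, and 4 of 9 with spike-in scaling). The largest differences were those of Kera (keratocan, -2.91 ± 0.32), Chad (chondroadherin, -2.25 ± 0.57) and Ecm2 (-1.55 ± 0.15), with limma adjusted p = 7.5e-05, 0.008 and 3.8e-05 in that order. Kera and Chad also stand in the tendon list below. Of 27 other genes of elastic fibres and microfibrils, 17 fell and 5 rose (median -0.81, and 5 lower and 6 higher with spike-in scaling). The largest falls were those of Efemp1 (fibulin-3, -2.03 ± 0.18), Loxl2, a lysyl oxidase that cross-links collagen and elastin (-1.74 ± 0.36), and Mfap4 (-1.70 ± 0.31). By its 2 other tested probes, Loxl2 differed by -1.24 and -0.92. The 5 that rose, named after their values were seen, were Mfap1a (0.80) and Mfap1b (0.31), whose protein is a splicing factor, Mfap3 (0.61), Tgfb1 (0.42) and Ltbp3 (0.25).

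Fibronectin's receptors and partners did not move one way, with 9 of 18 lower and 5 higher (median -0.36, and 0.32 with spike-in scaling). Itgb6, an integrin chain, was well above background in all 4 WT mice and in none of the PCKO mice, which bounds it at least 18.2-fold lower in PCKO. Itga4, a fibronectin-binding integrin chain, fell by 2.32 ± 0.22 and Tns1, which ties integrins to actin, by 1.73 ± 0.14. The 5 higher, named after their values were seen, were Itgav (0.64), Sdc4 (0.59), Sdc2 (0.43), Itgb1 (0.40) and Tln1 (0.19), which encode 2 integrin chains, 2 syndecans and talin. Here and below, such a bound sets the bright group's mean against the lowest signal that counts as well above background on each array of the dim group, or the probe's own value where that is higher. These bounds hold for percentile scaling. Spike-in scaling moves every difference up by 0.68, so bounds on falls would be smaller with it.

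Of 17 genes of the SPARC family and other matricellular proteins, 9 fell and 3 rose (median -1.15, and 7 lower and 5 higher with spike-in scaling). Postn (periostin) fell by 2.34 ± 0.38 and Smoc2, a SPARC-related calcium-binding protein, by 2.05 ± 0.14. Ccn1, an early-response matricellular protein, moved the other way. Its level was 5.79, 6.01, 5.65 and 4.29 in PCKO mice, against 2.49, 2.68, 2.60 and 2.73 in WT mice. It rose by 2.81 ± 0.34 (limma adjusted p = 1.3e-04), every PCKO mouse lying above every WT mouse. The others that rose were Ccn2, given with the fibrosis genes, and Spock2 (1.55), a secreted proteoglycan of the SPARC family picked after its value was seen.

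Around Pdgfra, 5 of 6 other PDGF ligand and receptor genes fell and 0 rose (median -0.95), but with spike-in scaling only Pdgfrl, a receptor-like protein, was called lower (-0.72, limma adjusted p = 0.037, lost with its own variance at adjusted p = 0.19). The ligand Pdgfa was at 4.40, 4.39, 4.62 and 4.38 in PCKO mice, against 5.52, 5.48, 5.73 and 5.70 in WT mice. Both groups were tight, and Pdgfa fell by 1.16 ± 0.10 (limma adjusted p = 1.4e-05). Pdgfb, the ligand made largely by endothelium, fell by 0.97 ± 0.14.

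The families of the remaining members were small. Of 4 tested CAP family genes, to which Pi16 belongs, all 4 were lower (2 of 4 with spike-in scaling). Clec18a was bounded at least 11.5-fold lower in PCKO, Glipr2 fell by 1.48 ± 0.28, a size measured against 3 PCKO values not well above background (1 PCKO mouse and all 4 WT mice were well above it), and Crispld1 by 1.29 ± 0.16, a call lost with spike-in scaling (-0.61, limma adjusted p = 0.072). All 3 relatives of endosialin fell, Clec14a by 1.19 ± 0.30, Cd93 by 0.82 ± 0.09 and Thbd (thrombomodulin) by 0.40 ± 0.08, but 0 of 3 were called with spike-in scaling, where Thbd had a difference of 0.27. These 3 are chiefly endothelial genes. Of 9 genes of the gelsolin family and other actin-severing proteins, 5 fell and 1 rose (median -0.65, but 0.03 with spike-in scaling, where 2 were lower and 2 higher). Avil (advillin) was at least 3.76-fold lower in PCKO, Svil (supervillin), which has a form in striated muscle, fell by 3.22 ± 0.12, and Cfl2, the muscle cofilin, fell by 0.85 ± 0.09, although Cfl2 differed by -0.17 with spike-in scaling (limma adjusted p = 0.62). Dstn (destrin) was the one that rose (0.67, picked after its value was seen).

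Collagen and laminin chains fell in 24 of 28 cases and rose in 1 (median -1.15, and 11 lower and 3 higher with spike-in scaling). Col1a1, the main chain of fibrillar collagen, stood at 1.73, 3.42, 2.27 and 1.67 in PCKO mice, against 5.90, 5.83, 5.64 and 4.66 in WT mice. It fell by 3.23 ± 0.42 (limma adjusted p = 2.1e-04), more than any of the 10 members, with PCKO mouse 2 again the highest of its group. Lamb3 was at least 4.74-fold lower in PCKO, and Lama1 at least 2.22-fold higher, although Lama1 differed by -0.02 with normexp background correction.

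Genes of myofibroblasts and fibrotic activation were mixed: of 12 tested, 7 fell and 3 rose (median -0.73, and 4 lower and 4 higher with spike-in scaling). Those lower included Lrrc15 and Postn, given above. Lrrc15 was at least 1.62-fold lower with percentile scaling, a bound about the size of the 0.68 log2 units between the scalings. Ccn2, a matricellular protein induced by TGF-beta and mechanical load, was at 7.00, 7.39, 7.02 and 6.58 in PCKO mice, against 4.83, 5.46, 4.37 and 5.61 in WT mice, and rose by 1.93 ± 0.29 (limma adjusted p = 4.3e-04). The other genes of this list called higher were Runx1 (1.26), a transcription factor, and Timp1 (1.01), an inhibitor of matrix proteases, both picked after their values were seen. Among 19 matrix proteases and inhibitors 11 fell and 5 rose (median -0.56, but 0.12 with spike-in scaling, where 3 were lower and 6 higher), the largest falls being those of Pcolce, an enhancer of procollagen processing (-1.79 ± 0.19), Adamts2, which trims procollagen (-1.54 ± 0.15), and Mmp23 (-1.49 ± 0.29). The other 4 that rose, again named after the fact, were Adamts4 (1.63), Htra1 (1.32), Mmp11 (1.25) and Adamts9 (0.54).

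**Figure D5:**
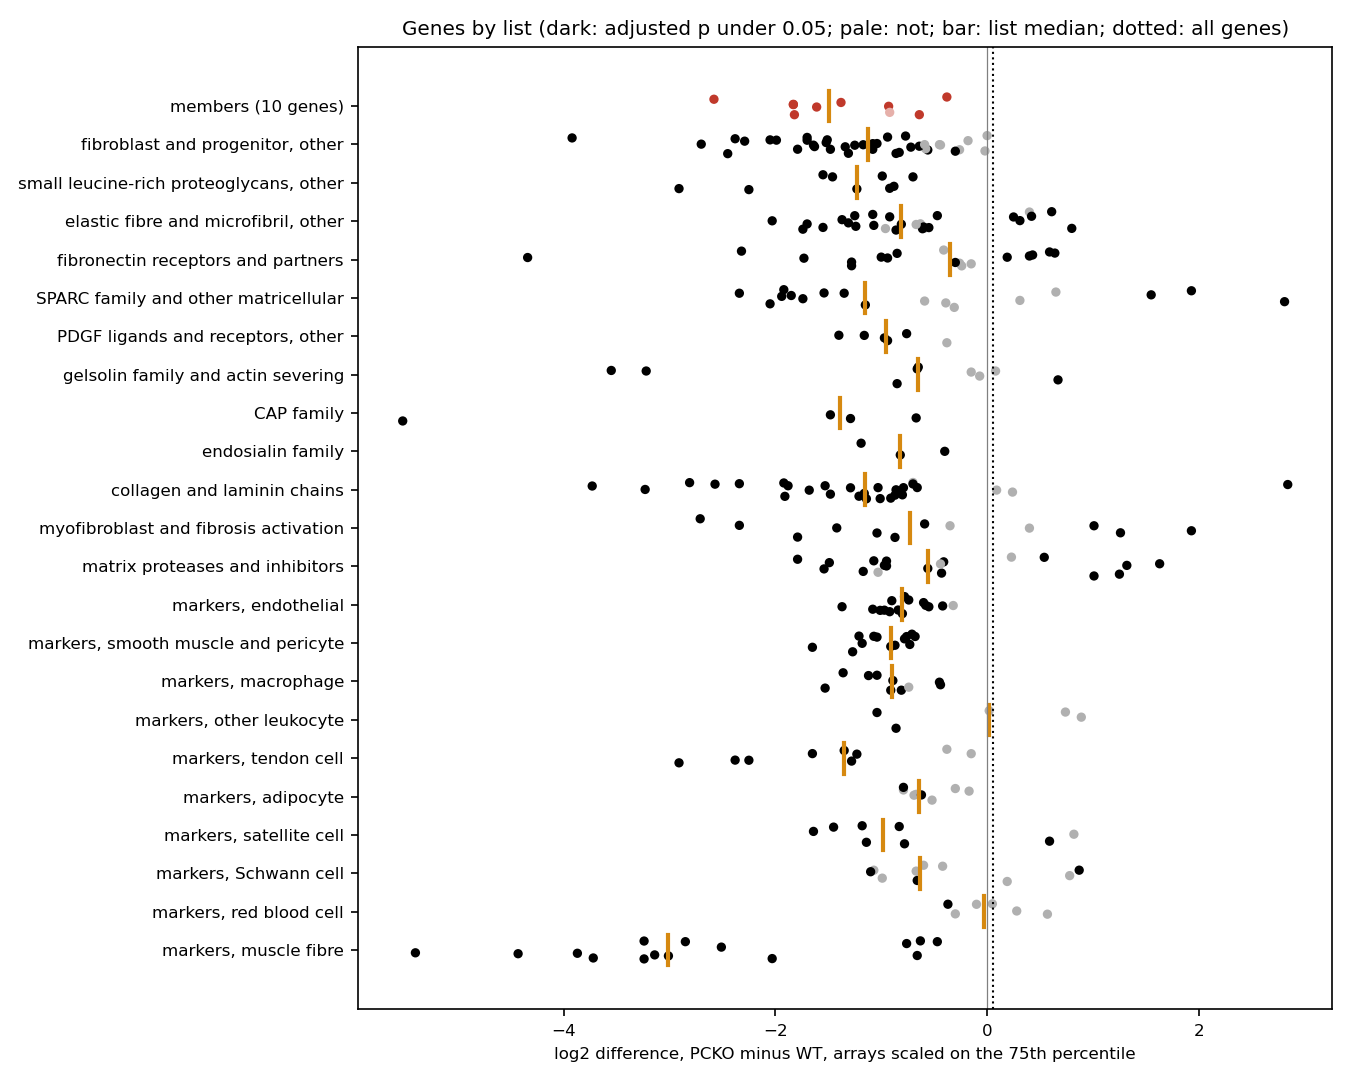
Log2 difference of each tested gene, PCKO minus WT, by list (arrays scaled on the 75th percentile; dark points passed an adjusted p of 0.05, pale points did not; orange bars are list medians, the dotted line the median of all genes). The members and most stromal lists lie left of 0, the muscle fibre markers furthest left with a median of -3.01; with spike-in scaling all points move right by 0.68.

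Markers of some other cell types were mostly lower too, while those of others were not, and their part in the results was not tested. Over all named genes tested, 31.9% were called lower with percentile scaling and 9.4% with spike-in scaling. Spike-in counts of all lists use pooled variance, which makes p-values too small. Endothelial markers fell in 14 of 15 cases (median -0.80), with a summed level of 256 to 292 in PCKO and 437 to 489 in WT, in multiples of the array's 75th percentile. All 13 smooth muscle and pericyte markers fell (median -0.91, summed level 172 to 220 in PCKO and 361 to 438 in WT). With spike-in scaling 1 of 15 (Vwf, -0.69) and 1 of 13 (Des, desmin, -0.98) stayed lower. Des is also a gene of muscle fibres, and Myh11 of the same list differed by -0.03 with spike-in scaling. Macrophage markers fell in 9 of 10 cases (median -0.90, summed level 14.7 to 28.9 in PCKO and 35.1 to 46.4 in WT; 2 of 10 with spike-in scaling), and other leukocyte markers in 2 of 5 (summed level 2.04 to 14.9 in PCKO and 2.24 to 4.81 in WT). With spike-in scaling 0 of those 5 leukocyte markers were lower and 3 higher (Cd3e, S100a8 and S100a9). With percentile scaling these 3 did not pass (limma adjusted p = 0.94, 0.31 and 0.39).

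Tendon cell markers fell in 7 of 9 cases (median -1.35, summed level 36.3 to 80.4 in PCKO and 84.3 to 200 in WT), and 4 of 9 were lower with spike-in scaling. Tnmd (tenomodulin), the defining tendon gene, was at -2.52, -1.39, -1.75 and -1.83 in PCKO mice, against 0.57, 0.89, 0.06 and 0.49 in WT mice, all well above background. Satellite cell markers fell in 6 of 8 cases and rose in 1 (summed level 64 to 83.5 in PCKO and 167 to 203 in WT), but with spike-in scaling 2 were lower and 2 higher. Most of the summed level came from Cd34 and Itga7 (WT means 6.32 and 6.44), and Itga7 is also expressed by muscle fibres. Cd34 also stands in the fibroblast list, Notch3 in that of smooth muscle and pericytes, and Sdc4 among the fibronectin partners. Pax7 itself was well above background in 3 PCKO mice and 1 WT mouse and differed by 0.82 (limma adjusted p = 0.12). With spike-in scaling Pax7 differed by 1.50 (limma adjusted p = 4.2e-05 with pooled variance, which makes it too small). The one that rose was Sdc4. Adipocyte markers fell in 2 of 8 cases (Fabp4, -0.79, and Lipe, -0.62, but -0.12 and 0.06 with spike-in scaling), with Adipoq at 1.01 to 3.30 in PCKO and 1.90 to 4.03 in WT. Of these, Fabp4 is also expressed by endothelial cells. Schwann cell markers fell in 2 of 10 cases and rose in 1 (Mbp, 0.87), and of 6 red blood cell markers 1 fell (Hba-a2, -0.37, but 0.31 with spike-in scaling). With spike-in scaling 0 were lower and 3 higher in each of these last lists, of Schwann cells and of red blood cells.

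Muscle fibre markers fell in all 15 cases (median -3.01), and 11 of the 15 were lower with spike-in scaling. Their summed level was 2990 to 3530 in PCKO and 10700 to 13200 in WT. Ckm, muscle creatine kinase, was at 5.82, 5.79, 6.48 and 5.70 in PCKO mice, against 9.32, 9.03, 9.41 and 8.99 in WT mice. Pecam1, Adgre1, Tnmd, Myh11 and Col1a1 were well above background on every array.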

How the data were processed

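RNA of 8 EDL muscles (4 PCKO, 4 WT) was hybridised to single-colour Agilent arrays, per the labels. The deposited scanner files hold spot intensity made by Feature Extraction 10.7.3.1, background-subtracted within each array and not normalized between arrays, per the file headers. How the authors made the log2 values of the deposited series table is not stated in these sources; the table lists 6 of the 11 member probes and served as an alternative only.

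Control spots and spots marked as outliers were left out and spots of 1 probe averaged. Each array's log2 processed intensities were centred on their 75th percentile, taken over 55681 non-control probes. Probes well above background on at least 4 of 8 arrays were tested by a two-sided limma fit (version 3.58.1, R 4.3.3; lmFit, then eBayes) with group as its single term and a threshold of 0.05 after Benjamini-Hochberg adjustment. Accessions were matched to RefSeq mouse genes (26582 probes with 1 symbol, 29099 unnamed). Probe sequences and positions were not used here, so signal from related transcripts on 1 probe was not separated. Spike-in scaling centred each array on 7 of the 10 spike-in control probes, those well above background and not saturated on all arrays. The number of arrays, 4 per group, limits the precision.

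The members and the 22 gene lists were chosen with earlier results of these data known. Named genes were all members with every probe, up to 3 genes per list with the largest absolute difference among those called with non-overlapping groups, Ep300, Crebbp and the defining cell type markers; for marker lists of other cell types, mainly counts and summed levels are printed. Most genes named outside this rule are said to be so. The rest are named because they did not pass, were called with spike-in scaling or also stand in another list. A gene that the rule takes is not reported here. The labels give 4 numbered mice per group. Same-numbered PCKO and WT mice deviated together at r of 0.02 to 0.09, against -0.1 to 0.06 for PCKO and WT mice of different number. The numbers were not taken as pairs, though such small values do not exclude pairing. A fit with the replicate number as a block is given below. The fit was also run on simulated data with independent noise for each probe and few changed probes. That setting lacks the error shared by all probes of an array, so no result here rests on it. Alternatives were other scalings, background correction, filters, probe summaries, variance models, blocks for replicate number and slide row, each row alone, and leaving out each mouse. Spike-in scaling with each probe's own variance and the ratios to Dcn were added after seeing the data.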

Additional observations from a re-analysis of the deposited data

Results flagged for a closer look

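Within the groups of 4 mice, 6 of 150 tested sets of values held a mouse that stood apart from the other 3 by Dixon's test at the 95% level, and chance flags about 1 in 20. Among the members, Gsn in PCKO mouse 2 was at 7.45, against 7.86 to 7.90 in the other PCKO mice, and Cd248 in WT mouse 4 was at 3.46, against 3.96 to 4.06 in the other WT mice. Without PCKO mouse 2 the call of Gsn was lost (limma adjusted p = 0.057), and without WT mouse 4 Cd248 differed by -1.96 (limma adjusted p = 7.5e-04). The others were Pdgfa in PCKO mouse 3 (4.62, against 4.38 to 4.40 in the other PCKO mice), Lamb3 in WT mouse 3 (-2.27, against -1.48 to -1.38 in the other WT mice), Pecam1 in PCKO mouse 2 (-0.25, against -0.41 to -0.40) and Ckm in PCKO mouse 3 (6.48, against 5.70 to 5.82). PCKO mouse 2 is thus named for Gsn, where it was the lowest of its group, and for Pecam1, where it was the highest. It was also the PCKO mouse with the highest level for 8 of the 10 members with percentile scaling, and for 7 with spike-in scaling. The cause was not tested.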

How the results depend on the processing

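Of 267 member differences under other settings, 240 kept their direction and their side of the threshold, 14 lost the call, 8 gained it and 5 changed sign. Pi16, Fn1, Fbn1, Cd248 and both Sparc probes kept their call in each setting that gave them a value. The sign changed for Dcn with spike-in scaling (0.04) and for Gsn with spike-in scaling (0.30) and quantile normalization (0.09). Dcn also lost its call with normexp background correction (-0.34, limma adjusted p = 0.085) and in slide row 2 alone (-0.54, limma adjusted p = 0.091). Gsn lost its call with normexp (-0.11), with no filter on dim probes (limma adjusted p = 0.099) and in either slide row alone (limma adjusted p = 0.18 and 0.071). The 8 gains were all of Mfap5, at adjusted p of 0.0052 to 0.048. Spike-in scaling alone took the call from Pdgfra. With spike-in scaling and each probe's own variance, 6 member probes were called lower, and 5 of the 6 that the deposited values list. Leaving out each mouse left 9 to 10 member probes lower and 0 higher.

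The fit with the replicate number as a block called 11 member probes lower, with 7720 of all probes lower and 8168 higher, and it ended no member's call. Over all probes, those lower and higher in PCKO numbered 2393 and 12966 with spike-in scaling (1958 lower with own variance), 4170 and 4880 with the brightest probe per gene, 4094 and 4898 with the mean of a gene's probes, and 4022 and 5370 with the deposited table. These last 3 tested fewer features. In slide rows 1 and 2 alone, with 2 mice against 2, 5438 and 5454 were higher. Leaving out each mouse gave 7346 to 7530 lower and 7765 to 8273 higher. It also gave 0.54 to 0.81 for the 75th percentile relative to the spike-ins (exact permutation p = 0.057, the smallest possible with 3 mice against 4). Of 853 differences of 35 other named genes, 827 were unaltered in direction and call, 23 lost the call and 3 changed sign, those of Thbd with spike-in scaling (0.27) and of Lama1 with normexp (-0.02). The cause was not tested. Signal near background limits the dimmer Sparc probe and the genes given as bounds.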
